A study of Homo sapiens with 6 samples.

Results

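The transcripts of 9 genes that sense oxygen in human cells were followed in the core (TC) and the margin (TM) of xenograft tumors. The 9 genes were chosen by name: the hypoxia-inducible factor (HIF) subunits HIF1A, EPAS1, ARNT and ARNT2, the prolyl hydroxylases EGLN1, EGLN2 and EGLN3, the ubiquitin ligase subunit VHL and the asparaginyl hydroxylase HIF1AN. They are 9 of 60671 annotated genes in the deposited matrix. All 9 reached 1 TPM (a length-corrected share of all transcripts in a sample) or more in 3 samples or more, and so belonged to the 13861 genes tested. RNA-seq had been performed on 6 tumor samples, 3 from the TC and 3 from the TM. The tumors had grown from wild-type MDA-MB-231 cells, an established human line of triple-negative breast cancer, placed in the mammary fat pads of young female NSG mice. NSG mice lack mature lymphocytes and natural killer cells but keep fibroblasts, blood vessels, muscle and macrophages. Both groups share the cell line, the host strain and the injection, and the labels set them apart by the zone of the tumor. Samples of a group are described as different mice, and neither the labels nor the methods state whether the TC and TM of one number came from one tumor.

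A HIF is a dimer of an oxygen-labile alpha subunit (HIF1A or EPAS1, also called HIF2A) and a stable partner (ARNT or ARNT2). In the presence of oxygen the EGLN enzymes hydroxylate prolines of the alpha subunit, VHL binds the hydroxylated protein and has it degraded, and HIF1AN hydroxylates an asparagine and thereby keeps the coactivators EP300 and CREBBP away. When oxygen is short these reactions slow, the alpha subunit persists as a protein, and the dimer induces genes that carry its binding motif. EGLN3 and EGLN1 are themselves among the genes that HIF induces, whereas EGLN2 is not known as one. Because this control acts on the protein, the RNA levels given here do not measure HIF activity.

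The promoter windows of the EGLN genes are shown because EGLN1 and EGLN3 are known HIF targets and EGLN2 is not. The windows are those of RefSeq on GRCh38.p14 and hold 250 bases before and 50 bases after a start that RefSeq gives. For EGLN1, EGLN2 and EGLN3 this start lies inside the longer GENCODE v29 span printed with each gene. The core of the HIF binding motif, ACGTG or GCGTG, was searched on both strands, and capitals mark each match.
EGLN1: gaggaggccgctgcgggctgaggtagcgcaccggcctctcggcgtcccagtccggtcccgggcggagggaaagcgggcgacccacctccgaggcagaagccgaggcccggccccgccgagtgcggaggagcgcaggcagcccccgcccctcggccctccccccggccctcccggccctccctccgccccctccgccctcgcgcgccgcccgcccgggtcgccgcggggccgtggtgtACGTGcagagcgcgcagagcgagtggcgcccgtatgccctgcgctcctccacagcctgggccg
EGLN2: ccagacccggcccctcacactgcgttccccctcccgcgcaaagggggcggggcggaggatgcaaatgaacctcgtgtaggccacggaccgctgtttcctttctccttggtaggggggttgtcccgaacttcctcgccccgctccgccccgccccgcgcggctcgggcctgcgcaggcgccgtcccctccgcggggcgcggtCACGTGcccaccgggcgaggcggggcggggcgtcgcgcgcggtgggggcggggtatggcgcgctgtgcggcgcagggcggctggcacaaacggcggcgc
EGLN3: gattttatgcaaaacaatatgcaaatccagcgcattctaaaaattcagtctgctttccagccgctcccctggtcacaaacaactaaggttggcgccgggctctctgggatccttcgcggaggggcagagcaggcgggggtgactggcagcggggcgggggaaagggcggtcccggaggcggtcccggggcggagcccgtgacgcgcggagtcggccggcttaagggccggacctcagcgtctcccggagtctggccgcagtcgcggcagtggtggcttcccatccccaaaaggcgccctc

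The EGLN1 window (minus strand, chr1:231422238-231422537) held 1 match, which began 13 bases before the start. Of the EGLN2 windows, the one shown (plus strand, chr19:40798941-40799240) held CACGTG, which reads ACGTG on both strands and is a single site, and another (chr19:40799272-40799571) held none. The window of EGLN3 (minus strand, chr14:33951025-33951324) held none either. Windows were given for 7 of the 9 genes, and 4 of them had a match in at least 1 window: HIF1A, EPAS1, EGLN1 and EGLN2. A match was held by 48.4% of all 35116 RefSeq windows, so the letters alone set none of these genes apart, and a window without them says nothing about binding elsewhere in the gene.

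The levels of the 9 genes spanned from 1.99 ± 0.436 TPM for ARNT2 to 57.8 ± 14.9 TPM for HIF1A (mean ± SD over the 6 samples). TPM is corrected for transcript length, so levels can be set side by side between genes. In descending order of the mean the genes were HIF1A, VHL, EGLN2, EGLN1, HIF1AN, EPAS1, ARNT, EGLN3 and ARNT2. Neighbours in this order had overlapping ranges over the 6 samples in every case except EGLN3 and ARNT2. The order held in each of the 6 samples for VHL over EGLN2, for HIF1AN over EPAS1 and for EGLN3 over ARNT2, and in 4 of the 6 samples for EPAS1 over ARNT. HIF1A lay at percentile 83.9 of the mean level of all tested genes, VHL at 81.5 and ARNT2 at 12.0. HIF3A, a further alpha subunit, was listed at 0 in 5 samples and at 0.03 TPM in TM replicate 3.

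**Figure D1:**
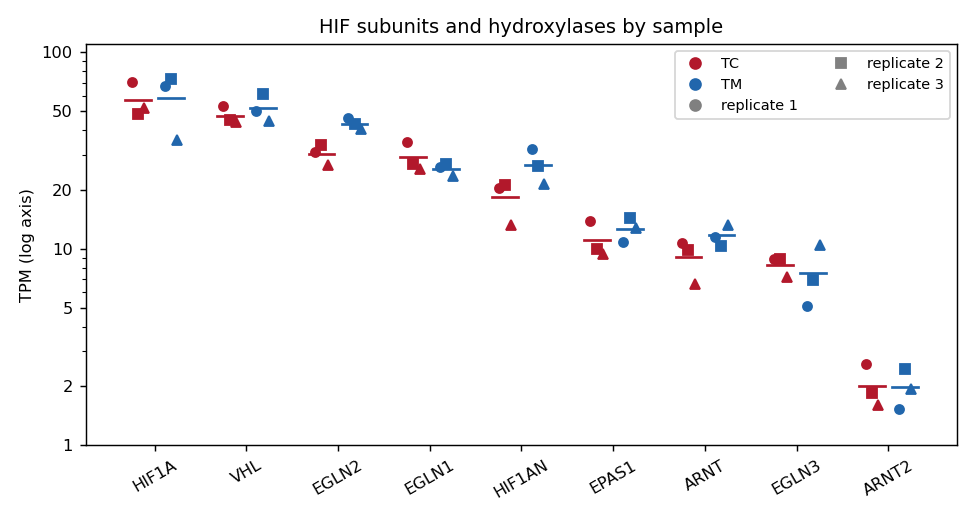
TPM of the 9 genes on a log axis, ordered by mean, with TC samples in red and TM samples in blue; symbols mark the replicate number and horizontal lines the group mean of 3 samples. The TC and TM points of EGLN2 and HIF1AN do not overlap, and TM replicate 3 is the lowest sample for HIF1A and the highest for EGLN3.

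To compare the zones, log2(TPM + 1) values were fitted with limma over all tested genes, and differences are given as TC minus TM. Of the 9 genes 0 reached an adjusted p-value under 0.05, the smallest being 0.151 (limma), in a comparison that called 0.137% of all tested genes. At an unadjusted p-value under 0.05, 2 of the 9 genes had lower TC values (EGLN2 and HIF1AN), where 14.2% of all tested genes were, and 0 of the 9 had higher ones, against 1.93%. In the same 2 genes all TC values were below all TM values, against 18.9% of all tested genes. The median log2 difference was -0.12 over the 9 genes and -0.14 over all tested genes, so as a group they lay at the general level. Median-of-ratios rescaling, which sets the typical gene to the same level in every sample, raised the median of all tested genes by 0.18 to 0.049 and that of the 9 genes to 0.084. A limma p-value sets the difference between the groups against the spread of samples within them, as estimated with information from all tested genes. The depth of the libraries is unknown from TPM.

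**Figure D2:**
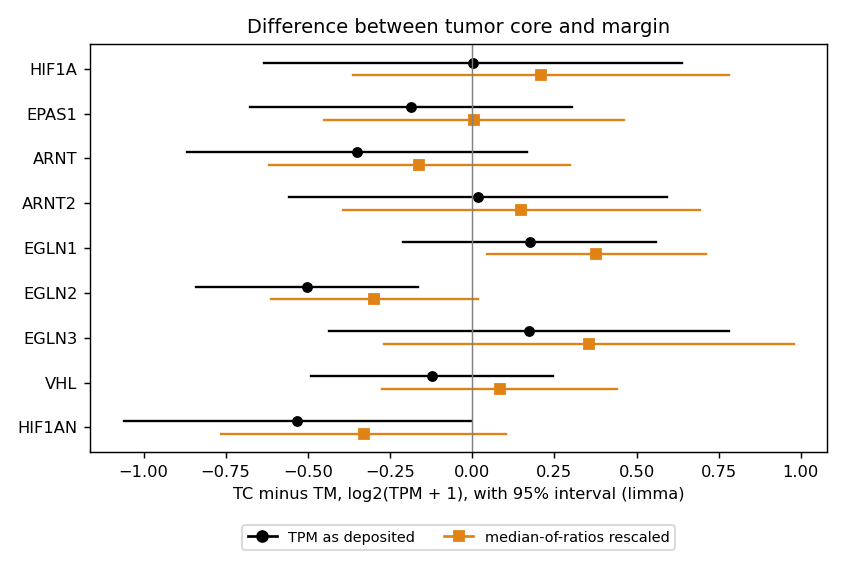
TC minus TM difference of each gene on the log2(TPM + 1) scale with its 95% interval from limma (3 samples per group), for TPM as deposited (black) and after median-of-ratios rescaling (orange). The intervals of EGLN2 and HIF1AN lie below 0 for deposited TPM and reach 0 after rescaling, whereas that of EGLN1 lies above 0 only after rescaling.

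The prolyl hydroxylases were examined first. EGLN2 (ENSG00000269858; GENCODE v29 on GRCh38, chromosome 19, 40798996 to 40808433, plus strand) acts on HIF alpha subunits mainly when oxygen is ample. TC replicates 1, 2 and 3 held 30.9, 33.7 and 26.6 TPM of it, and TM replicates 1, 2 and 3 held 46.2, 42.9 and 40.9 TPM. Every TC sample was below every TM sample. The means were 30.4 ± 3.60 TPM in TC and 43.3 ± 2.67 TPM in TM (SD, n = 3). This gave a log2 difference of -0.50 (SE 0.15, 95% interval -0.84 to -0.16, limma adjusted p = 0.151). The difference stayed below 0 in all 17 alternative settings, between -0.58 and -0.27, with limma adjusted p-values from 0.105 to 0.481. It was -0.30 after median-of-ratios rescaling, and -0.27 once the trend over GC content and length of transcripts had been taken out of every sample; in both, the unadjusted p-value was above 0.05. The median GC content of EGLN2 transcripts, 63.4%, was the highest of the 9 genes.

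Reads of EGLN2 can be shared with RAB4B-EGLN2, a readthrough gene on the same strand (chromosome 19, 40778242 to 40808418). In TC the readthrough gene was at 7.85, 6.41 and 6.36 TPM, and in TM at 6.02, 5.96 and 4.72 TPM. It was therefore higher in each TC sample than in any TM sample, opposite to EGLN2 (log2 difference 0.26, SE 0.21, limma adjusted p = 0.608). Together both reached 38.7, 40.1 and 32.9 TPM in TC and 52.2, 48.9 and 45.6 TPM in TM, again without overlap.

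EGLN1 (ENSG00000135766; chromosome 1, 231363751 to 231425044, minus strand) encodes the hydroxylase that sets HIF1A protein in most cells. It was at 34.8, 27.1 and 25.5 TPM in TC and at 26.1, 26.95 and 23.4 TPM in TM. The groups overlapped, with TC replicate 1 highest and TM replicate 3 lowest. The log2 difference was 0.18 (SE 0.17, 95% interval -0.21 to 0.56, limma adjusted p = 0.671). It was 0.38 (SE 0.14, adjusted p = 0.322 in limma) when median-of-ratios rescaling was applied. EGLN1 was then the only one of the 9 genes at an unadjusted p-value under 0.05, a threshold that 6.81% of all tested genes passed with higher TC values. In that scaling 0 of the 9 were lower at this threshold, against 6.70% of all tested genes. The difference of EGLN1 was above 0 in all 17 alternative settings, from 0.045 (without TC replicate 1) to 0.38.

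EGLN3 (ENSG00000129521; chromosome 14, 33924231 to 34462774, minus strand, a span that also holds SPTSSA) is the hydroxylase whose RNA responds most to HIF in many cells. It was at 8.88, 8.89 and 7.15 TPM in TC and at 5.11, 6.94 and 10.5 TPM in TM. The TC samples lay close together, whereas TM spread from the lowest to the highest of all 6 samples. The log2 difference was 0.17 (SE 0.27, 95% interval -0.44 to 0.78, limma adjusted p = 0.810). It rested on the TM samples, being -0.041 without TM replicate 1 and 0.41 without TM replicate 3.

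Within a sample, the share of each enzyme in the summed EGLN transcripts does not change with a factor common to all genes. It can change with a trend over GC content, and the median GC content was 63.4% for EGLN2 and 41.4% for EGLN1 transcripts. Shares were not computed with the GC and length trend removed. In that setting the log2 difference was -0.27 for EGLN2 and 0.23 for EGLN1. EGLN2 made up 41.4%, 48.4% and 44.9% of the EGLN sum in the TC samples and 59.7%, 55.9% and 54.7% in the TM samples. EGLN1 made up 46.7%, 38.9% and 43.1% in TC and 33.7%, 35.1% and 31.4% in TM. Both shares were separate between the zones, while that of EGLN3 overlapped (11.9% to 12.8% in TC and 6.60% to 13.99% in TM). Shares of one sum are tied, so a lower share of EGLN2 leaves a higher one to the others, and the TPM of EGLN1 itself overlapped between the zones. The ratio of EGLN2 to EGLN1 came to 0.888, 1.24 and 1.04 in TC, against 1.77, 1.59 and 1.74 in TM, with means of 1.06 ± 0.178 and 1.70 ± 0.0953 (SD, n = 3). With the readthrough gene added to EGLN2, its share came to 49.97% ± 2.86 in TC, against 59.7% ± 2.66 in TM (SD, n = 3), still without overlap. The 3 enzymes together reached 67.8 ± 7.83 TPM in TC, against 76.3 ± 1.37 TPM in TM (SD, n = 3). The groups were separate by a narrow margin, with TC replicate 1 at 74.5 TPM and TM replicate 3 at 74.8 TPM. Unlike a share, this sum changes with a factor common to all genes of a sample, and it is given for TPM as deposited only. Shares and ratios were not tested, and how often those of other genes are separate was not counted.

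**Figure D3:**
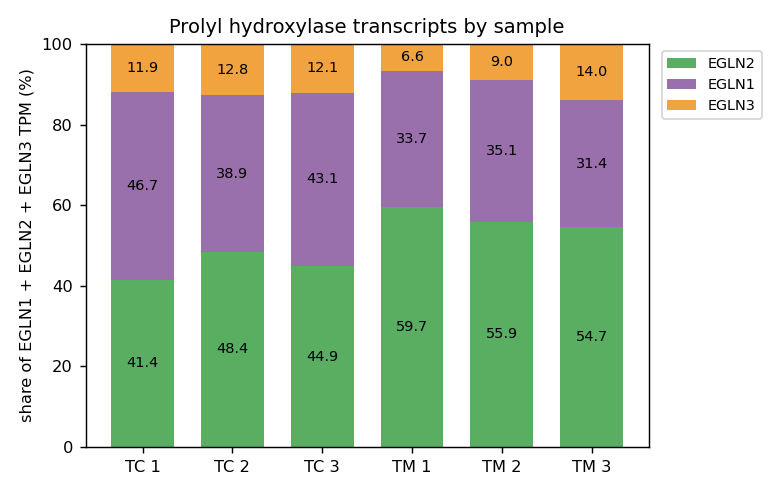
Share of EGLN2, EGLN1 and EGLN3 in their summed TPM, in percent, for each TC and TM sample; numbers in the bars are the shares. EGLN2 is at most 48.4% in TC and at least 54.7% in TM, and EGLN1 is at least 38.9% in TC and at most 35.1% in TM.

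HIF1AN (ENSG00000166135; chromosome 10, 100529072 to 100559998, plus strand) encodes factor inhibiting HIF, the asparaginyl hydroxylase. It was at 20.4, 21.2 and 13.2 TPM in TC and at 32.0, 26.5 and 21.4 TPM in TM. The groups were separate by a narrow margin, since TC replicate 2 and TM replicate 3 lay next to each other at 21.2 and 21.4 TPM. The log2 difference was -0.53 (SE 0.23, 95% interval -1.06 to -0.0021, limma adjusted p = 0.307). It was -0.32 without TC replicate 3, the lowest sample, -0.33 after median-of-ratios rescaling and -0.25 without TM replicates 1 and 2, all with an unadjusted p-value above 0.05, and it was below 0 in all 17 alternative settings. NDUFB8, on the opposite strand, overlaps the first bases of HIF1AN and was at 408 to 576 TPM.

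VHL (ENSG00000134086; chromosome 3, 10141008 to 10152220, plus strand) recognizes the hydroxylated alpha subunits. It was at 53.2, 45.2 and 44.2 TPM in TC and at 50.2, 61.3 and 44.8 TPM in TM, the narrowest range of the 9 genes with a highest value 1.39 times the lowest. The log2 difference was -0.12 (SE 0.16, 95% interval -0.49 to 0.25, limma adjusted p = 0.774), and it was 0.084 after median-of-ratios rescaling.

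Among the alpha subunits, HIF1A (ENSG00000100644; chromosome 14, 61695513 to 61748259, plus strand) was at 70.4, 48.2 and 52.2 TPM in TC and at 67.4, 73.3 and 35.6 TPM in TM. The groups had nearly the same mean (56.9 ± 11.8 and 58.8 ± 20.3 TPM, SD, n = 3), and TM replicate 3 was the lowest and TM replicate 2 the highest of all samples. The log2 difference was 0.0026 (SE 0.28, 95% interval -0.63 to 0.64, limma adjusted p = 0.997), so a difference of up to 0.63 in either direction lay within the interval. Single samples decided its sign: it was -0.16 without TC replicate 1, -0.32 without TM replicate 3, and 0.64 without TM replicates 1 and 2 together (limma adjusted p = 0.296), where the lone TM sample is assumed to vary like the TC samples. HIF1A-AS3, which lies opposite HIF1A (chromosome 14, 61715558 to 61751097, named HIF1A-AS2 in GENCODE v29), was at 12.7, 4.16 and 3.57 TPM in TC and at 7.34, 3.01 and 4.82 TPM in TM, and HIF1A-AS1 was listed at 0 in all 6 samples.

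EPAS1 (ENSG00000116016; chromosome 2, 46293667 to 46386703, plus strand) encodes the alpha subunit that is known above all from blood vessel walls and kidney tumors. It was at 13.9, 9.95 and 9.41 TPM in TC and at 10.8, 14.4 and 12.8 TPM in TM. The groups overlapped, and the log2 difference was -0.19 (SE 0.21, 95% interval -0.68 to 0.30, limma adjusted p = 0.734), or 0.0057 after median-of-ratios rescaling. For each HIF1A transcript there were 0.197, 0.207 and 0.180 EPAS1 transcripts in TC, against 0.160, 0.196 and 0.359 in TM. HIF1A was thus the more abundant alpha transcript in every sample, least so in TM replicate 3.

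The partner ARNT (ENSG00000143437; chromosome 1, 150809705 to 150876768, minus strand) was at 10.7, 9.89 and 6.64 TPM in TC and at 11.5, 10.4 and 13.2 TPM in TM. TC replicate 3 was lowest, and the groups overlapped through TC replicate 1. The log2 difference was -0.35 (SE 0.23, 95% interval -0.87 to 0.17, limma adjusted p = 0.514), -0.16 without TC replicate 3 and below 0 in all 17 alternative settings. ARNT2 (ENSG00000172379; chromosome 15, 80404350 to 80597937, plus strand), a relative best known from the nervous system, was at 2.59, 1.84 and 1.60 TPM in TC and at 1.53, 2.44 and 1.94 TPM in TM. Its log2 difference was 0.017 (SE 0.25, adjusted p = 0.985 in limma). The summed partners reached 0.134 to 0.202 of the summed alpha subunits in TC and 0.146 to 0.314 in TM, so the alpha transcripts exceeded those of the partners in all samples.

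**Figure D4:**
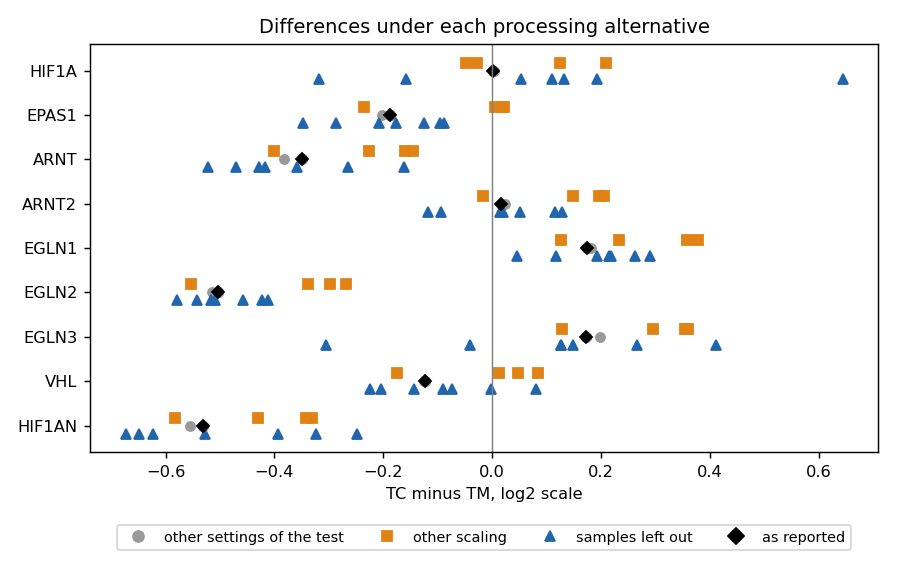
TC minus TM difference of each gene on the log2 scale as reported (black), under other settings of the test (grey), under other scalings (orange) and with samples left out (blue). EGLN2, HIF1AN and ARNT stay below 0 and EGLN1 above 0 in every setting, whereas HIF1A runs from -0.32 to 0.64.

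RNA of mouse cells can add to the values of human genes where the sequences are alike, since no step that parts the species was described. In bulk samples fewer cells of a type and less RNA per cell cannot be told apart. Of 10 markers used for the cell line, VIM was at 3797 to 5283 TPM, KRT18 at 387 to 575 TPM and CD44 at 197 to 267 TPM. CDH1, ESR1 and PGR were at most 0.36, 0.13 and 0.22 TPM. ERBB2 was at 22.3 to 24.1 TPM in TC and at 30.8 to 40.7 TPM in TM (log2 difference -0.59, limma adjusted p = 0.128). The cell type label, epithelial, thus went with the keratins but not with CDH1, and EPCAM was at only 3.66 to 6.02 TPM. Summed TPM of 13 skeletal muscle markers was 4.11 to 7.75 in TC and 186, 494 and 2.29 in TM replicates 1, 2 and 3, with 10, 11 and 0 of the markers at 1 TPM or more in TM. The 10 fibroblast markers added up to 66.3, 124 and 226 TPM in TC, and to 479, 1007 and 91.5 TPM in TM. COL1A1 alone held 335 and 698 TPM of this in TM replicates 1 and 2. LUM, PDGFRA and THY1 were at most 0.38, 0.3 and 0.07 TPM in any sample. The fibroblast sum is therefore mostly one of collagen transcripts and says little about the other fibroblast markers. Endothelium markers summed to 60.7 to 75.1 TPM in TC and 64.5 to 81.8 TPM in TM. Adipocyte markers summed to 0.66 to 0.96 and 1.35 to 1.64, and erythroid markers to 1.10 to 6.93 and 0.29 to 4.82. Macrophage markers summed to 96.4 to 110.2 TPM in TC and 103 to 113.5 TPM in TM. CD68 alone held 84.8 to 94.2 TPM of this, so the sum says little about the other macrophage markers. Of the 4 macrophage markers tested, 4 had a log2 difference below 0, and 2 after median-of-ratios rescaling. Of all 13861 tested genes, 9283 and 6087 had one. CD68 was among the 4 at -0.0016. Only CSF1R was without overlap, lower in TC (log2 difference -0.80, SE 0.35, limma adjusted p = 0.314), as were 18.9% of all tested genes. TM replicates 1 and 2, with the highest muscle and fibroblast sums, held 67.4 and 73.3 TPM of HIF1A and 5.11 and 6.94 TPM of EGLN3, while TC replicate 1, with the lowest fibroblast sum, held 70.4 TPM of HIF1A. EPAS1 is also a gene of blood vessels, and among the 10 endothelium markers EGFL7 was at 26.65 to 40.39 TPM, ESAM at 23.2 to 35.6 TPM and CDH5 at 1.52 to 4.66 TPM, whereas PECAM1 was at 0.14 to 1.28 TPM and VWF at 0.05 to 0.66 TPM. The part of host RNA in the values of the 9 genes was not tested.

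The genes that HIF induces were examined next, on a list of 29 known targets without EGLN1 and EGLN3. Of 28 tested targets 0 were called (smallest adjusted p = 0.123, limma), and at an unadjusted p-value under 0.05 the TC values of 5 were higher and of 0 lower, against 1.93% and 14.2% of all tested genes. After median-of-ratios rescaling 10 were higher at this threshold, against 6.81%. The groups did not overlap in 5 targets, all higher in TC, where 3.28% of all tested genes were. FAM162A, BNIP3, PGK1 and AK4 met both criteria, ANKRD37 met that on the p-value and LDHA that on overlap. The median log2 difference was 0.24 for the targets and 0.45 after median-of-ratios rescaling, with 23 and 27 of the 28 higher in TC, where 4578 and 7774 of all 13861 tested genes were. FAM162A, a mitochondrial protein linked to cell death in hypoxia, was at 103, 132 and 103 TPM in TC and at 75.8, 73.6 and 80.6 TPM in TM (log2 difference 0.54, SE 0.14, limma adjusted p = 0.123). BNIP3, which marks mitochondria for autophagy, was at 194.7, 194.1 and 159.9 TPM in TC and at 110.6, 99.6 and 156 TPM in TM (log2 difference 0.60, SE 0.18, limma adjusted p = 0.168). PGK1, a glycolytic kinase, had a log2 difference of 0.33. The other targets named here, ANKRD37 (0.75), AK4 (0.38) and LDHA (0.24), were chosen after their values were seen. CA9, a carbonic anhydrase of the cell surface that is widely used as a hypoxia marker, was at 36.5, 58.5 and 27.3 TPM in TC and at 20.4, 20.8 and 49.5 TPM in TM (log2 difference 0.48, SE 0.38, limma adjusted p = 0.608). VEGFA, the main growth factor of blood vessels, was at 134, 107 and 72.5 TPM in TC and at 95.6, 98.9 and 186 TPM in TM (log2 difference -0.25, SE 0.30, limma adjusted p = 0.745).

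The targets divided the TM samples in the way EGLN3 did, a pattern looked for after the values were seen. In TM replicate 3 22 of the 28 targets were above both other TM samples (78.6%, against 28.2% of all tested genes), whereas replicate 1 was the highest TM sample in 2 and replicate 2 in 4. The mean log2(TPM + 1) of the 28 targets, relative to its mean over all samples, was 0.28, 0.27 and -0.17 in TC, and in TM it was -0.29, -0.24 and 0.15, in the order of replicate number. EGLN3 stood at 0.18, 0.18 and -0.099 in TC and at -0.51, -0.14 and 0.39 in TM. HIF1A took another course, with 0.32, -0.22 and -0.10 in TC and 0.26, 0.38 and -0.64 in TM. TM replicate 3 therefore held the lowest HIF1A transcript level together with a mean of the targets inside the range of the TC samples. The low target means of TM were those of replicates 1 and 2. These also held the highest sums of muscle markers (186 and 494 TPM, against 2.29 TPM in TM replicate 3). TC replicate 3 had a low target mean too, at a muscle sum of 4.11 TPM. Whether the target difference depends on the muscle content of TM was not tested.

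**Figure D5:**
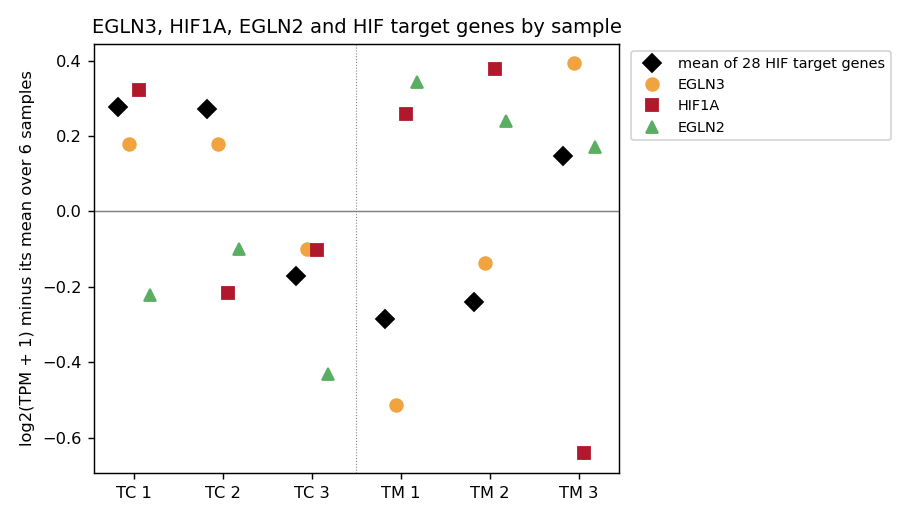
log2(TPM + 1) minus its mean over the 6 samples for EGLN3, HIF1A, EGLN2 and the mean of 28 HIF target genes, by sample. In TM replicate 3 EGLN3 (0.39) and the targets (0.15) are above their means and HIF1A (-0.64) is below, the reverse of TM replicates 1 and 2.

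Likeness of pattern was measured by Pearson correlation of log2(TPM + 1) over the 6 samples against the other 13860 tested genes, as a description, since high values are certain to be found among so many genes. The genes most like HIF1A were TBPL1 (r = 0.997), NDC80 (r = 0.992) and RFXAP (r = 0.990). Those most like EPAS1 were ARHGEF35 (r = 0.980), KIAA1217 and PBX4 (both r = 0.975), and those most like EGLN3 were LAPTM4A (r = 0.988), SYT12 (r = 0.985) and MIR99AHG (r = 0.969). LAPTM4A, a lysosomal membrane protein, followed the same division of TM, at 308, 363 and 488 TPM in replicates 1, 2 and 3.

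The proteins that work beside VHL, the coactivators and other regulators were taken as further lists. Of 5 subunits and cofactors of the VHL ubiquitin ligase 0 were called (smallest adjusted p = 0.206, limma), 2 had higher TC values at an unadjusted p-value under 0.05, against 1.93% of all tested genes, and the groups did not overlap in 4, all higher in TC, against 3.28%. RBX1, the RING subunit, was at 163, 151 and 189.8 TPM in TC and at 136, 127 and 89.9 TPM in TM (log2 difference 0.52, SE 0.18, limma adjusted p = 0.206). ELOB, an adaptor, was at 343, 412 and 406 TPM in TC and at 333, 325 and 251 TPM in TM (log2 difference 0.36, SE 0.15, limma adjusted p = 0.285). ELOC, which binds VHL directly, had a log2 difference of 0.31 (SE 0.16) and CUL2, the scaffold, one of -0.14 (SE 0.27). The median of the 5 was 0.31, and 0.52 after median-of-ratios rescaling, in which 4 were higher at an unadjusted p-value under 0.05, against 6.81% of all tested genes. RBX1, ELOB and ELOC also serve other ligases.

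Of 9 transcriptional cofactors of HIF 0 were called (smallest adjusted p = 0.142, limma), 3 had lower TC values at an unadjusted p-value under 0.05 and 0 had higher ones, against 14.2% and 1.93% of all tested genes. The median log2 difference was -0.33. After median-of-ratios rescaling it was -0.13, and 2 were lower at this threshold, against 6.70%. CREBBP, the acetyltransferase that HIF1AN keeps away from HIF, was at 13.4, 8.87 and 7.68 TPM in TC and at 17.2, 16.1 and 22.5 TPM in TM (log2 difference -0.86, SE 0.24, limma adjusted p = 0.142). Its relative EP300 was at 20.3, 14.6 and 11.7 TPM in TC and at 28.0, 22.8 and 22.2 TPM in TM (log2 difference -0.64, SE 0.22, limma adjusted p = 0.206). Both were without overlap, as were 4 of the 9 cofactors in all, each lower in TC, against 18.9% of all tested genes. After median-of-ratios rescaling CREBBP and EP300 still had an unadjusted p-value under 0.05 (limma adjusted p = 0.270 and 0.333). SMARCA4, a chromatin remodeler, had a log2 difference of -0.40. CITED2, which competes with HIF1A for these acetyltransferases, had one of 0.021 (SE 0.17, limma adjusted p = 0.974).

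At an unadjusted p-value under 0.05 the remaining lists are to be read against the 14.2% of all tested genes that were lower in TC. Counts after median-of-ratios rescaling are to be read against 6.70% lower and 6.81% higher. Of 14 regulators of HIF stability 0 were called and 1 was lower at an unadjusted p-value under 0.05, AJUBA, a scaffold that joins the hydroxylases to VHL (log2 difference -0.38, SE 0.16, limma adjusted p = 0.300). Of 12 relatives with the same bHLH-PAS domains 8 were tested and 0 called, and NPAS2, a partner of clock proteins, was lower at that threshold (log2 difference -0.59, SE 0.15, limma adjusted p = 0.123). Among the 8, 1 was lower and 1 higher at it after median-of-ratios rescaling. Of 24 other enzymes that use oxygen to hydroxylate or demethylate, 22 were tested, 0 were called, 3 were lower at an unadjusted p-value under 0.05, near the share of all tested genes, and 0 were higher. After median-of-ratios rescaling 2 were lower and 1 was higher, PLOD2 (log2 difference 0.77, limma adjusted p = 0.218), which was named after its value was seen. The 3 lower ones were PLOD3, which hydroxylates lysines of collagen (log2 difference -0.40), TET3, which oxidizes methylated cytosine (-0.77), and KDM5C, a histone demethylase (-0.71). Of 13 enzymes that make or use 2-oxoglutarate, succinate and fumarate, the cosubstrate of the hydroxylases and their inhibitors, 0 were called, and D2HGDH, OGDH and SDHA were lower at that threshold with log2 differences of -1.08, -0.50 and -0.34, of which 1, D2HGDH, stayed under it after median-of-ratios rescaling. Their medians were -0.17, -0.19, -0.18 and -0.13 in the order of these lists, close to the -0.14 of all tested genes, and 0.035, -0.0040, 0.026 and 0.066 after median-of-ratios rescaling.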

How the data were processed

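RNA-seq libraries (TruSeq) had been made from total RNA of 3 TC and 3 TM samples. According to the study's methods, the authors trimmed paired reads with SeqPrep and Sickle, aligned them with HISAT2 in orientation mode, assembled transcripts with StringTie and quantified genes with RSEM. The submitters' processing notes name hg38; tool versions and the annotation release are not given in the sources used here. The deposited values are TPM, corrected for transcript length and scaled to 1000000 per sample (994381 in TM replicate 3), so sequencing depth is unknown, and DESeq2, which the study used, was not run. The number of other value columns was 0. Groups and replicate numbers came from the sample titles.

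Symbols were found for 60401 of 60671 annotated genes. Positions are those of GENCODE 29 on GRCh38. Genes that reached 1 TPM in 3 or more samples were tested on log2(TPM + 1), a scale that understates changes of low genes, by limma 3.58.1 in R 4.3.3 (empirical Bayes with a mean-variance trend, two-sided, no covariate), with Benjamini-Hochberg adjustment over all 13861 genes. The fit was also run on simulated normal values, drawn for each gene on its own. These hold no shift shared by many genes, so the run does not show how the fit handles one. Named were all 9 members, list genes with an unadjusted p-value under 0.05 (at most 3 per direction and list), HIF3A, ELOC, CUL2, CITED2, CA9 and VEGFA, and the 3 genes most like HIF1A, EPAS1 and EGLN3. Genes and samples singled out otherwise were chosen after their values were seen. The members and lists were chosen with earlier results of these data known. Of 14 muscle markers 13 were used. Alternatives numbered 17, of which 15 were planned and 2, removal of the GC and length trend and leaving out TM replicates 1 and 2 together, were added after seeing the data. Figures were drawn with matplotlib 3.10.9.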

Additional observations from a re-analysis of the deposited data

How the results depend on the processing

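No alternative called any of the 9 genes or any gene of the pathway lists at an adjusted p-value under 0.05 (limma). Over all tested genes 19 were called, against 7 with a pseudocount of 0.1, 1 without a filter, 4 after quantile normalization, 6 after median-of-ratios rescaling, 12 without a mean-variance trend, 47 with robust empirical Bayes, 6 after removal of the GC and length trend, 195 without TM replicates 1 and 2, and 1 to 17 with a single sample left out (4 without TC replicate 1, 1 without TC replicate 3, 1 without TM replicate 1 and 9 without TM replicate 2). The differences of EGLN1, EGLN2, ARNT and HIF1AN kept their sign in all settings. The sign turned for HIF1A without mitochondrially encoded genes (-0.048) and after removal of the GC and length trend (-0.027), and for EPAS1 after quantile normalization (0.018), median-of-ratios rescaling (0.0057) and GC and length removal (0.021). It turned for VHL in the same 3 settings (0.012, 0.084 and 0.048) and without TM replicates 1 and 2 (0.080), for ARNT2 without mitochondrially encoded genes (-0.017), and for EGLN3 without TM replicates 1 and 2 (-0.31). With single samples left out, HIF1A ranged from -0.32 to 0.19, ARNT2 from -0.12 to 0.13 and EGLN3 from -0.041 to 0.41. The cause was not tested. ARNT2 was not covered by the filter at a mean of 5 TPM.

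Deviations from the group means of TC and TM samples with the same number correlated at 0.21, -0.12 and -0.17. Those of samples with different numbers correlated at -0.23 to 0.32. Such deviations sum to 0 within a group, so the correlations are tied. They cannot decide whether the replicate numbers pair the samples. With the replicate number as a block 1 gene was called over all tested genes, 0 of the 9 and 0 in the pathway lists (limma adjusted p = 0.272 for EGLN2 and 0.282 for HIF1AN). TPM holds no depth, so counting error could not be given for any level.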
